A study of Mus musculus with 16 samples.

Results

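The arrays labelled STAT6-/- were compared with those labelled WT. They were chosen by their titles, 4 of each genotype, which makes 8 of the 16 arrays of the series; the other 8 carry STAT4-/- and HDC-/- cells (HDC forms histamine). Each array held total RNA of CD11b+ cells, pooled from 5 mice labelled male, isolated from spleen or bone marrow. The animals ate either control food or, as a model of atherosclerosis, a high-fat diet (HFD) for 3 months. WT and STAT6-/- mice were each measured once in spleen on control diet, spleen on HFD, marrow on control diet and marrow on HFD, so the comparison has 4 pairs matched for tissue and diet. No combination was repeated, the pooling hides the spread between animals, and p-values measure only the spread between pairs. The mouse strain, the promoter or allele behind each knockout and the deleted part of each gene are not given in the labels. All STAT6-/- arrays lay on other slides than the WT arrays, so slide and genotype cannot be told apart. The STAT4-/- arrays shared the WT slides and the HDC-/- arrays the STAT6-/- slides, and their levels are given beside the main results for that reason.

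STAT6 is the transcription factor through which interleukin-4 and interleukin-13 act. These cytokines bind receptors that contain IL-4Rα, the attached JAK kinases phosphorylate STAT6, and the STAT6 dimer binds palindromic DNA sites in which TTC and GAA stand 4 bases apart. In macrophages this programme is known for genes of alternative activation such as Arg1, Retnla, Mrc1 and Mgl2. Interferon-gamma is the classical counterpart of the IL-4 signal and acts at gamma-activated sites, and type I interferons act at interferon-stimulated response elements.

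Signals are given as log2 of the processed Cy3 intensity minus the 75th percentile of the array, here called the scaled log2 signal. Per-array values always follow the order spleen control, spleen HFD, marrow control, marrow HFD. A difference is STAT6-/- minus WT on the log2 scale, and a feature was called at an adjusted p under 0.05 (limma on the 4 pairs, Benjamini-Hochberg over 27865 features). The share of probes well above background was 70.3% to 82.4% on the WT arrays, 81.6% to 82.3% on the STAT6-/- spleen arrays and 59.9% to 68.7% on the STAT6-/- marrow arrays. Itgam, which encodes CD11b, was well above background on all 8 arrays, at 3.65, 3.88, 5.81 and 5.79 in WT and 4.54, 3.77, 5.80 and 5.89 in STAT6-/-. The B cell list reached a mean scaled log2 signal of 2.55 in WT and 2.13 in STAT6-/- spleen, so markers of cells other than myeloid cells were present in both genotypes. The 3 Y-linked transcripts Ddx3y, Eif2s3y and Uty averaged -0.026 to 0.194 on the WT and -0.206 to 0.0763 on the STAT6-/- arrays, and they went against the label male on all 4 control-diet arrays of the other genotypes (-6.81 and -5.71 in STAT4-/-, -8.52 and -7.94 in HDC-/-), while the HFD arrays of these genotypes read -0.751 to -0.215. Comparisons with STAT4-/- and HDC-/- rest in part on those 4 arrays, and counts and tests over all 12 other arrays are also given without them. Counts of features outside the range of the other arrays cannot fall when arrays are left out. The array labelled STAT4-/- spleen HFD read 5.90 for Itgam and -0.95 for the B cell list. The other spleen arrays read 3.00 to 4.83 and 1.52 to 2.65, and the marrow arrays 4.60 to 5.89 and -3.07 to 0.40. It was kept as labelled, and whether it holds spleen cells was not tested.

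Do the arrays labelled STAT6-/- carry less Stat6 signal? Stat6 has 3 probes, and each was lower in STAT6-/- than in WT in 4 of 4 pairs. The brightest, A_52_P114494, read 3.60, 3.29, 3.45 and 4.02 in WT and 2.66, 2.40, 2.90 and 2.52 in STAT6-/-. The mean pair difference was -0.97 (SD 0.39, n = 4), which is 1.96-fold. All STAT6-/- values lay below all WT values, yet they overlapped the STAT4-/- arrays, which reached down to 2.20, and the HDC-/- arrays, which reached down to 2.85.

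Against all 12 other arrays the mean of this probe was lower by 0.699 (exact two-sided permutation p 0.0434, Benjamini-Hochberg over the 3 probes 0.0651). Leaving out 1 STAT6-/- array at a time gave exact p of 0.0484 to 0.108, and the p was above 0.05 without the spleen control (0.0725), the spleen HFD (0.108) and the marrow HFD array (0.0945). Probe A_52_P132761 read -3.03, -3.02, -3.21 and -2.52 in WT against -4.09, -4.60, -4.52 and -5.29 in STAT6-/-, the widest separation of the 3 probes (exact permutation p 0.0011 against the 12 others, adjusted 0.0033). With normexp background correction this difference of -1.29 became -0.564 (exact permutation p 0.078). Probe A_65_P00601 gave an exact permutation p of 0.109. Without the 4 control-diet STAT4-/- and HDC-/- arrays the 3 differences were -1.02, -1.52 and -1.17, with exact permutation p of 0.00202, 0.00202 and 0.00606. For A_52_P114494 and A_52_P132761 every other array at or below the highest STAT6-/- value was among those left out. Their p is the smallest that 4 against 8 arrays can give. The arrays were left out after the data were seen, so these p do not test the label. All 3 probes stayed well above background on all 4 STAT6-/- arrays, so the Stat6 signal was lower there but not lost, and a probe outside the deleted part cannot check the label.

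**Figure D1:**
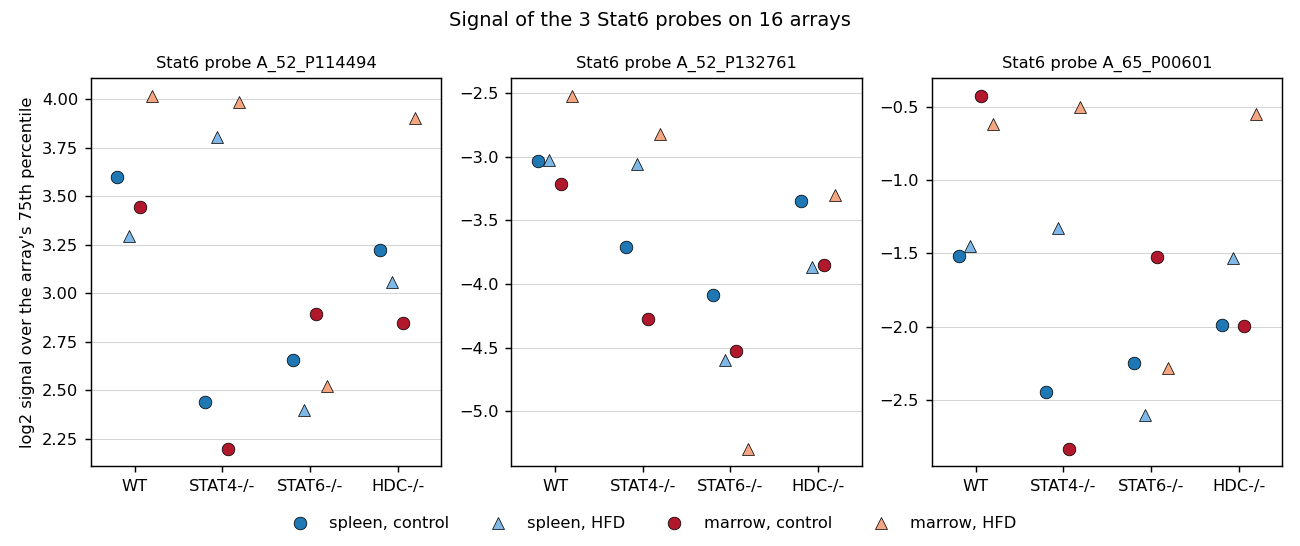
Scaled log2 signal of the 3 Stat6 probes on the 16 arrays, 1 point per array, coloured by tissue and shaped by diet, with a separate vertical axis for each probe. The 4 STAT6-/- points lie below the 4 WT points for every probe, while some STAT4-/- points, and for 2 probes some HDC-/- points, reach the STAT6-/- range.

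Which genes separated the genotypes across the 4 pairs? Oas1a, a member of the interferon-induced oligoadenylate synthetase family that senses double-stranded RNA, rose and was the single feature called. Its brightest probe read -8.06, -7.00, -6.71 and -7.08 in WT, not well above background on any of these arrays, and 3.00, 2.67, 3.41 and 3.57 in STAT6-/-. The groups were separated by more than 9 log2 units. Since WT lay under background the size is a bound: at least 1050-fold higher, with at least 973-fold in spleen and 1140-fold in marrow. These bounds hold for the processed signal only. Under normexp background correction the difference was 7.13 (limma adjusted p 0.00981), with 7.45 in spleen and 6.82 in marrow, where neither tissue gave a call. On the processed signal the fitted difference was 10.38 (SE 0.30, limma adjusted p 0.00518), and a second probe gave 7.61. The adjusted p was 0.00602 without the spleen control pair, 0.0716 without the spleen HFD pair, 0.297 without the marrow control pair and 0.204 without the marrow HFD pair, with differences of 10.15 to 10.61. Oas1a was as bright on the STAT4-/- arrays (2.66 to 3.68) and the HDC-/- arrays (2.94 to 5.29) as in STAT6-/-: the WT arrays stood apart from all 12 knockout arrays, as they did from below in 15 features (0.0538%), or in 43 without the control-diet STAT4-/- and HDC-/- arrays.

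The call of 1 feature is 0.00359% of those tested. At an unadjusted p under 0.05 there were 1551 (5.57%), 683 higher (2.45%) and 868 lower (3.12%), which is close to the share a threshold of 0.05 lets through. The genes named here therefore come from the 10 on each side with the smallest p that met further conditions, Oas1a among the higher ones. They had a symbol, 1 direction in all 4 pairs and signal well above background on all 4 arrays of the brighter genotype. Apart from Oas1a, their values are differences that did not pass the threshold.

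Further genes of the Oas1 cluster were among them. Oas1f read -4.31, -3.16, -3.09 and -2.99 in WT and 1.503, 1.28, 1.89 and 1.99 in STAT6-/-, a difference of 5.06 (SE 0.29, limma adjusted p 0.0932). Oas1g was under background on all WT arrays and above it on all STAT6-/- arrays, at least 2.77-fold higher (limma adjusted p 0.281), although its second probe was not above background on any of the 8 arrays. Under normexp background correction the Oas1g difference was 0.60. For both genes no WT value reached a STAT6-/- value, and the STAT4-/- and HDC-/- arrays lay above WT too (1.02 to 3.71 for Oas1f). The Oas1 genes are related members of a cluster, and sharing of signal between their probes was not tested. Oasl2, an interferon-induced relative, went the other way, as given below.

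Other genes higher in STAT6-/- came from unrelated functions. Ctps2, a CTP synthase, read -0.73, -0.66, -0.09 and -0.06 in WT and 2.37, 2.41, 3.28 and 3.70 in STAT6-/-, a difference of 3.32 (SE 0.23, limma adjusted p 0.122), and its second probe gave 2.17. Raet1e, a stress ligand of the NKG2D receptor, differed by 3.23 (adjusted p 0.281), from -4.16 to -2.01 in WT and from -0.66 to 1.63 in STAT6-/-. Both separated the genotypes without overlap. Ctps2 was as high on the HDC-/- arrays (2.23 to 3.04) and the STAT4-/- arrays (2.52 to 3.44), so WT lay below all knockout arrays. Raet1e read -4.41 to -1.96 on the HDC-/- arrays and was above WT on the STAT4-/- arrays (-1.14 to 0.02). The remaining genes were Ubtd1 (3.19), Fads3 (2.74), Rpl39l (2.33), the methylglyoxal-detoxifying enzyme gene Glo1 (1.85) and Sfi1 (1.67), all 4 of 4 pairs and with limma adjusted p of 0.281 to 0.355. For Ubtd1, Rpl39l and Glo1 all STAT4-/- and HDC-/- arrays lay above all WT arrays too. Fads3 spanned -2.82 to 0.93 and Sfi1 -2.81 to 0.45 on those 8 arrays, overlapping both genotypes. For Sfi1 the second probe gave 0.39, so its probes disagree in size.

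Of the 10 genes on the lower side, 4 are on the interferon lists used below: Oasl2, Gbp2, Igtp and Gbp7. Oasl2 read 4.77, 3.84, 3.76 and 2.67 in WT and 1.46, 0.58, 0.28 and -0.24 in STAT6-/-, a difference of -3.24 (SE 0.21, limma adjusted p 0.122). H2-Q8, an MHC class I gene of the Qa region, read 3.08, 3.33, 2.65 and 2.46 in WT against -0.23, -0.67, -1.11 and -2.44 in STAT6-/- (-3.99, SE 0.32, adjusted p 0.21). No STAT6-/- value reached the WT range for either gene. Oasl2 spanned 1.64 to 5.30 on the HDC-/- arrays, which share the STAT6-/- slides, and -0.19 to 0.89 on the STAT4-/- arrays, which share the WT slides, whereas H2-Q8 was below WT on both (-2.17 to 0.71 over the 8).

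The guanylate-binding proteins and immunity-related GTPases, which attack the vacuoles of intracellular pathogens, supplied 4 more. Gbp2 read 6.03, 4.41, 4.51 and 3.43 in WT and 2.86, 2.12, 1.74 and 0.57 in STAT6-/- (-2.77, SE 0.24, limma adjusted p 0.249). Igtp read 5.38, 4.08, 4.48 and 3.20 against 2.22, 1.66, 1.14 and 0.62 (-2.88, SE 0.26, adjusted p 0.261). Gbp7 differed by -2.88 (adjusted p 0.281) and Gbp2b by -2.70 (adjusted p 0.281), and the second Gbp2b probe gave -2.76. In both genotypes these genes were brightest in control-diet spleen and dimmest in HFD marrow, and the pairs ran in parallel.

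Also lower were Klra6 (-2.06), C130026I21Rik (-2.19) and Slfn8 (-2.06), with limma adjusted p of 0.281 to 0.29. Klra6 was under background on both STAT6-/- marrow arrays, so it was at least 1.41-fold lower there. With normexp background correction its difference was -0.765. For C130026I21Rik the WT arrays lay above all 12 knockout arrays, and the second Slfn8 probe gave -1.32. In 10 features (0.0359%) the 4 STAT6-/- values lay below all 12 other arrays, among them Acin1, Fam104a, Mtus2, Pja2 and 5 probes without a symbol. On the upper side there were 2 such features (0.00718%), the serotonin receptor gene Htr2a (STAT6-/- -6.34 to -5.56, others -8.80 to -6.42) and a probe without a symbol. Without the control-diet STAT4-/- and HDC-/- arrays there were 37 features on the lower and 19 on the upper side. With fewer arrays to compare these counts could not fall, so their rise is not a result. The genes outside the range of all other arrays were picked out after their values were seen, and none was called.

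**Figure D2:**
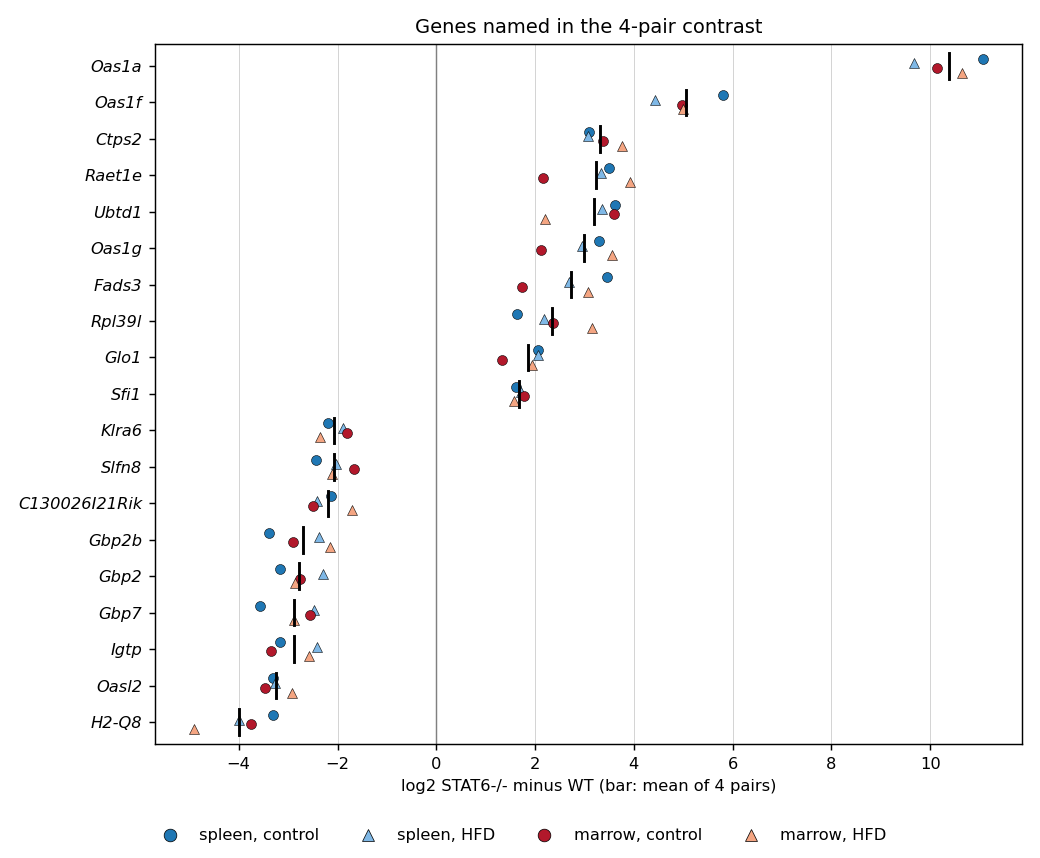
Log2 difference between STAT6-/- and WT in each of the 4 pairs (points, by tissue and diet) and their mean (bar) for 19 genes named in the 4-pair comparison. Oas1a lies near 10, Oas1f near 5, and all 19 genes have their 4 points on the same side of 0.

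The list of interferon-gamma response genes was lower in STAT6-/- cells of both tissues on both diets. Of 23 listed genes 22 were tested (Cxcl11 was not), and 19 of the 22 were lower in all 4 pairs, against 6.99% of all features, with none higher in all 4. The median difference was -1.88, and it was -2.33, -1.33, -1.65 and -1.25 in the 4 pairs, where all features had 0.41, 0.15, -0.24 and -0.28. In 11 of the 22 genes all STAT6-/- values lay below all WT values, against 1.26% of all features. None was called by limma, and 19 had an unadjusted p under 0.05 (3.12% of features on the lower side). With each pair left out in turn, 19 or 20 genes were lower in all pairs left, as were 9.93% to 14.5% of all features. A gene lower in all 4 pairs stays lower in the pairs left, so this count could not fall and does not test the result.

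Among these genes were the chemokine gene Cxcl9 (1.46, 0.10, -3.10 and -4.21 in WT, -0.42, -1.46, -5.59 and -6.14 in STAT6-/-), with a difference of -1.96 (limma adjusted p 0.323). Cd274, which encodes the checkpoint ligand PD-L1, read 4.21, 3.24, 2.51 and 1.44 in WT and 1.78, 1.58, 0.69 and -0.27 in STAT6-/- (-1.91, adjusted p 0.323). The transcription factor gene Irf1 differed by less, at 5.55, 5.17, 5.98 and 5.21 against 4.58, 4.38, 4.74 and 4.64 (-0.89, adjusted p 0.687). Each of these genes was lower in every pair, and for Irf1 the groups did not overlap. The GTPase gene Irgm1 (-2.42), the peptide transporter gene Tap1 (-1.54) and the immunoproteasome subunit gene Psmb9 (-1.19) were also lower in all 4 pairs. The exceptions in direction were Cxcl10 (-0.32), Nos2 (0.92) and Ciita (0.06), which had mixed signs.

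On the other genotypes the mean of the interferon-gamma list was as follows. WT read 1.82, 0.89, 0.55 and -0.17, and STAT6-/- read -0.18, -0.33, -1.18 and -1.55. The STAT4-/- arrays, on the WT slides, read -0.20, -1.08, -1.31 and -1.13. The HDC-/- arrays, on the STAT6-/- slides, read 1.34, -0.43, -0.05 and -1.43. WT was thus above the matched array of every knockout, by the least against HDC-/- on the control diet. The STAT4-/- HFD spleen array had marrow-like marker levels, as given above, so its match by tissue is uncertain.

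Natural killer cell markers, whose cells are a known source of interferon-gamma, were lower beside this list. Of 16 markers 5 were lower in all 4 pairs (6.99% of all features) and none higher, with medians of -2.05, -1.32, -0.69 and 0.11 in the 4 pairs, and 13 of 16 were lower in all pairs left without the marrow HFD pair (12% of all features). The defining receptor gene Ncr1 read 1.63, 1.30, -4.65 and -4.34 in WT and -1.64, -0.66, -5.21 and -5.37 in STAT6-/-. The mean of the list spanned -2.93 to 1.55 in WT and -3.04 to 0.04 in STAT6-/-, and Ncr1 was well above background on all 8 arrays. The part of these cells in the interferon-gamma result was not tested. In pooled CD11b+ cells, fewer cells of a type and less RNA per cell cannot be told apart.

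Type I interferon genes formed a similar pattern with an exception in the Oas1 genes. Of 30 listed genes 26 were tested, 19 were lower in all 4 pairs (6.99% of all features) and 2 higher (6.20%), namely Oas1a and Oas1g; the median difference was -1.09, with -1.5, -0.96, -0.80 and -1.02 in the pairs. Ifit1, which binds foreign RNA, read 3.18, 2.24, 1.73 and 1.63 in WT and 0.94, 0.41, 0.42 and -0.52 in STAT6-/- (-1.88, limma adjusted p 0.367). Irf7, the master regulator of the type I response, read 1.21, 0.73, -0.22 and -0.03 against -0.80, -1.22, -1.07 and -1.77 (-1.64, adjusted p 0.546). In 9 of the 26 genes, against 1.26% of all features, all STAT6-/- values lay below all WT values, Ifit1 and Irf7 among them. Without any 1 pair 19 to 22 genes were lower in all pairs left (9.93% to 14.5% of all features), a count that could not fall below 19. The mean level of the list was 0.94 to 2.00 in WT, 0.47 to 1.07 in STAT6-/-, 0.42 to 0.83 in STAT4-/- and 0.35 to 3.79 in HDC-/-, so arrays on the STAT6-/- slides held both the lowest and the highest value.

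**Figure D3:**
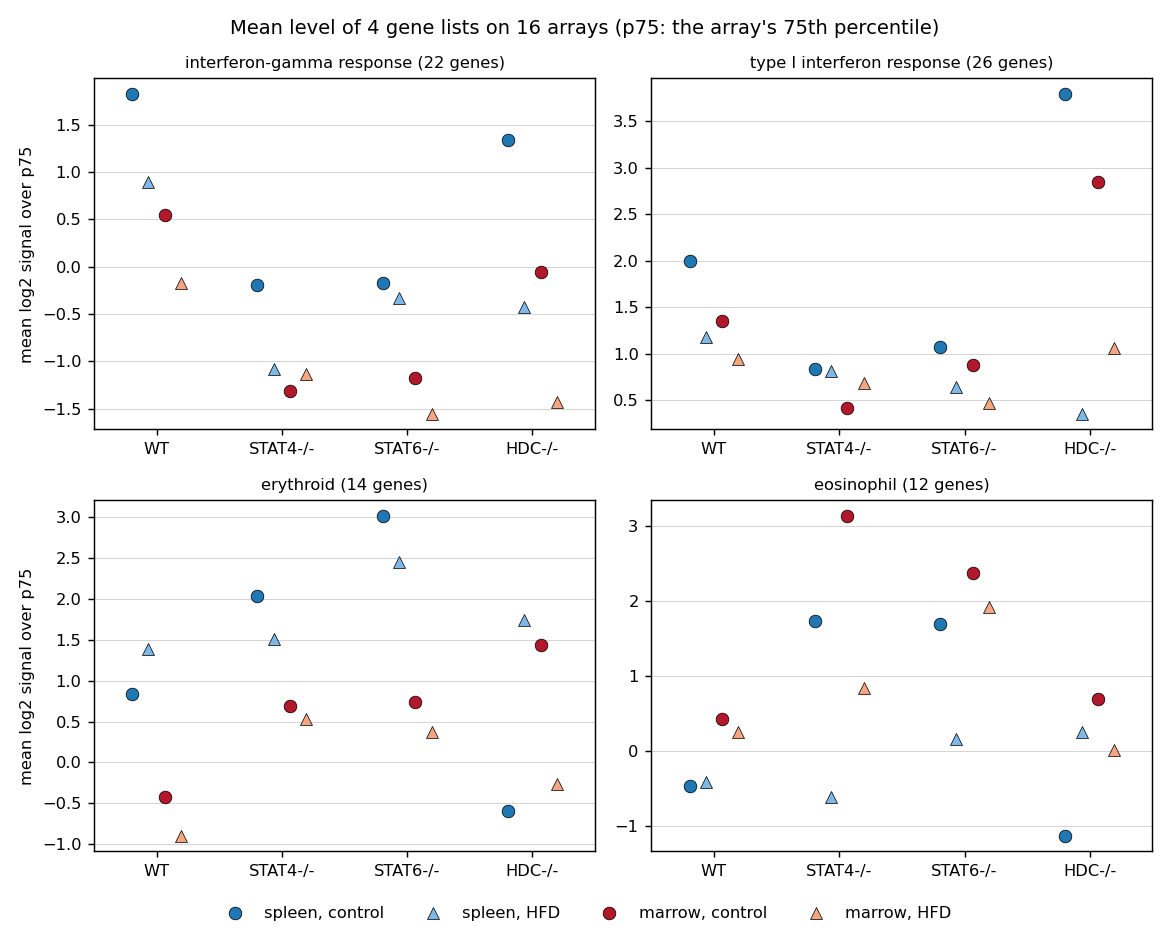
Mean scaled log2 signal of 4 gene lists on each of the 16 arrays, by genotype, tissue and diet, with 1 point per array. The interferon-gamma list is lower in STAT6-/- than in WT at each matched position, the erythroid and eosinophil lists are higher, and the HDC-/- arrays spread widely in the type I list.

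The genes that separated the genotypes can be read beside the sequence before their start. The windows are the 250 bases before the annotated start in RefSeq (GRCm38.p6), and 3 motifs were searched on both strands: TTC and GAA with 4 free bases between them (the spacing preferred by STAT6), the same with 3 free bases (TTCNNNGAA, the gamma-activated site), and GAAA and GAAA with 2 free bases between (the interferon-stimulated response element). Matches of different motifs may overlap. Of 14448 tested genes with a window, 5.98% held the STAT6 spacing, 7.64% the gamma-activated site and 3.46% the response element. Of the 16 interferon-gamma genes with a window, 10 held the response element (62.5%), 7 the gamma-activated site (43.8%) and 1 the STAT6 spacing (6.25%). Of 19 type I genes, 9 held the response element (47.4%).

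The 5 windows below are shown because they carry both kinds of element (Gbp7, Igtp), the response element alone in genes lower in STAT6-/- (Gbp2, Ifit1) or all 3 motifs in the gene that rose (Oas1a). Capitals mark the matches, and the sequences run 5′ to 3′ on the strand of the gene.
Gbp7, chr3:142530086-142530335, plus strand: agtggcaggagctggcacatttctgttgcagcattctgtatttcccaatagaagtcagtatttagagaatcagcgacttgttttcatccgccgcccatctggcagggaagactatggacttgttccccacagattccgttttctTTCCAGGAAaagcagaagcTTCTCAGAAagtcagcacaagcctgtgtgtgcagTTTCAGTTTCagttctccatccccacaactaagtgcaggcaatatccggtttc
Igtp, chr11:58199306-58199555, plus strand: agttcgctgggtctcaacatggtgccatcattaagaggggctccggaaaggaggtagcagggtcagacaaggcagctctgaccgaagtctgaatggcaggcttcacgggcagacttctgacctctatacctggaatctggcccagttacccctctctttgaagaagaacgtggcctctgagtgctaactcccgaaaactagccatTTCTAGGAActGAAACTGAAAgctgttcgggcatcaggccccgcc
Gbp2, chr3:142620413-142620662, plus strand: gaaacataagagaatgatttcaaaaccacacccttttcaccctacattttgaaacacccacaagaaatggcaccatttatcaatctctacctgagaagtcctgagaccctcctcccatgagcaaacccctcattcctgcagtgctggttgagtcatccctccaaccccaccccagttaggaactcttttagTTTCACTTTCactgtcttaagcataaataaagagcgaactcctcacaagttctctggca
Ifit1, chr19:34640639-34640888, plus strand: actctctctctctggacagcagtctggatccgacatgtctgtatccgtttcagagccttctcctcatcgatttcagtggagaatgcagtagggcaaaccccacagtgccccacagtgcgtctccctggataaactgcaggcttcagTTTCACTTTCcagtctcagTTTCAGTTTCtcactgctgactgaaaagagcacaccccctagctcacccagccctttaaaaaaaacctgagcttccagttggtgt
Oas1a, chr5:120907526-120907775, minus strand: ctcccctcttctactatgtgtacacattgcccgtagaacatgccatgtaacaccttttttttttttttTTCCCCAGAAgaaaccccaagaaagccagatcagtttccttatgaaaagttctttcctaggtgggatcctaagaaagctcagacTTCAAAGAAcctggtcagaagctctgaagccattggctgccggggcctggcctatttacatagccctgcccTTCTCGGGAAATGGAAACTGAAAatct
In Igtp the gamma-activated site begins 45 and the response element 34 bases before the start, so that both lie side by side. In Gbp7, with a difference of -2.88 as in Igtp, there are 2 gamma-activated sites and 1 response element. Ifit1 holds 2 response elements and Gbp2 1. The Oas1a window ends in 2 overlapping response elements that join a match of the STAT6 spacing. A match is a stretch of letters, not a measured site.

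What became of the IL-4 pathway itself? Its ligands and receptors showed no common direction. Il4 read -0.11, -1.59, -2.48 and -3.03 in WT and -0.26, -1.11, -0.62 and -1.28 in STAT6-/- (0.98, SE 0.42, limma adjusted p 0.905). Il13 was lower on average (-1.12, adjusted p 0.842) and was well above background on only 2 of 4 STAT6-/- arrays. Il4 was higher in 3 pairs and Il13 lower in 3.

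Il4ra, the receptor chain shared by both cytokines, was higher by 1.54 and 0.26 in spleen and lower by 1.17 and 0.01 in marrow. Il2rg, the common gamma chain of the type I receptor, read 3.38, 3.21, 1.08 and 1.38 in WT and 2.32, 2.54, 0.70 and 0.24 in STAT6-/- (-0.82, SE 0.23, limma adjusted p 0.77), lower in every pair but overlapping between tissues. The receptor chains Il13ra1 (-0.01) and Il13ra2 (-0.94) had mixed signs. Of the JAK kinases, Jak1 (-0.05), Jak2 (-0.26) and Jak3 (-0.06) had mixed signs and Tyk2 (-0.38) was lower in 4 of 4 pairs. None of these genes was called.

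Among the STAT genes, Stat4 (-0.51) was lower in all 4 pairs, as was Stat6 itself. Stat2, a factor of the type I interferon response, was lower in 3 pairs, by 1.62, 0.95 and 1.63, and differed by 0.05 in HFD marrow. Stat3 (-0.37), Stat5a (-0.16) and Stat5b (0.03) had mixed signs. Among 14 feedback genes, the SOCS family members Socs1 (-0.72) and Socs3 (-0.38) and the inhibitor gene Pias3 (-0.29) were lower in all 4 pairs, and the list had a median of -0.17.

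The known target genes of IL-4 and STAT6 in macrophages had no common direction. Of 40 listed symbols 36 were tested (Clec7a, Ccl22, Slc7a2 and Ear11 were not, under these symbols). Of these, 9 were lower and 3 higher in all 4 pairs, which is 25% and 8.33% where all features had 6.99% and 6.20%, and the median difference was -0.26, with -0.36, -0.19, -0.05 and -0.07 in the pairs. None was called, and 6 had an unadjusted p under 0.05: 4 lower (3.12% of all features) and 2 higher (2.45%). Without the marrow control pair the count of lower genes became 14 (13% of all features). Without the spleen control pair the median was -0.11.

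Mgl2, which encodes a galactose-type lectin of alternatively activated macrophages, was the clearest of the lower genes. It read 5.38, 5.08, 5.65 and 5.26 in WT and 4.49, 4.38, 4.38 and 4.39 in STAT6-/- (-0.94, SE 0.21, limma adjusted p 0.649). Socs1 read 1.75, 1.16, 0.95 and 1.08 against 0.78, 0.39, 0.49 and 0.39. In these 2 of 36 genes all STAT6-/- values lay under all WT values, as in 1.26% of all features. Mgl2 was also lower on all STAT4-/- and HDC-/- arrays than in WT (3.67 to 4.84 over the 12 knockout arrays).

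Further genes lower in every pair were the amino acid oxidase gene Il4i1 (-0.80), the lectin gene Cd209a (-1.29), the chemokine gene Ccl17 (-0.83), Irf4 (-0.49), Fcer2a (-0.50), Gata3 (-0.46) and Myc (-0.25). Ccl17 was dim, at -5.16, -4.71, -5.52 and -5.13 in WT and -5.25, -5.00, -6.41 and -7.18 in STAT6-/-, and above background on 2 of 4 STAT6-/- arrays. The eosinophil-attracting chemokine gene Ccl24 had the widest differences of the list, at -4.85, 0.68, -4.56 and -1.06. It was far lower on the control diet, while on HFD it was lower in marrow only. Ccl24 was well above background on 3 of 4 STAT6-/- arrays. It read -7.55 in STAT6-/- control-diet marrow, so the size there rests on signal near the floor. Its difference between diets was 4.52 (SE 0.76), which limma did not call (adjusted p 1).

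The textbook markers of alternative activation did not follow Mgl2. Arg1, which encodes arginase, read -8.67, -7.25, -7.43 and -7.34 in WT and -7.22, -6.63, -8.50 and -5.74 in STAT6-/-, above background on 1 array of each genotype, so its difference of 0.65 rests on signal near the floor. Retnla, a secreted resistin-like protein, read -4.36, -4.55, -4.19 and -4.81 against -4.35, -4.98, -2.98 and -2.75 (0.71, limma adjusted p 0.977). Chil3, a chitinase-like protein abundant in myeloid precursors, was bright and close in both genotypes, at 5.48, 5.75, 6.94 and 6.81 against 6.31, 5.38, 7.10 and 6.94 (0.19). Mrc1, the mannose receptor, was higher in all 4 pairs (0.80), by 2.25 in HFD spleen and by 0.16 to 0.58 elsewhere. None of these 4 genes was lower across the pairs, and their adjusted p of 0.941 to 0.995 does not show that they were equal.

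The other genes of the list that were higher in all 4 pairs, Alox15 (1.72) and Rnase2a (1.24), are also on the list of eosinophil genes, given below. In the windows of 25 of the listed targets, 5 held the STAT6 spacing (20%, against 5.98% of all), namely Retnla, Ccl17, Pdcd1lg2, Fcer2a and Tfec. Ccl17 is shown as the example that was lower in all 4 pairs, with the STAT6 spacing 154 and a gamma-activated site 99 bases before the start.
Ccl17, chr8:94810203-94810452, plus strand: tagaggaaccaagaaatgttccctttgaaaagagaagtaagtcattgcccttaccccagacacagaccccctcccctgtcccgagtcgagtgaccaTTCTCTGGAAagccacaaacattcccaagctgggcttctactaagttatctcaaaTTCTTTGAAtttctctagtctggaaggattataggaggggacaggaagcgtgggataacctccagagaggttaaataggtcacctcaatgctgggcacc
Of the 5 genes with this spacing, Ccl17 and Fcer2a were lower in all 4 pairs, and Retnla, Pdcd1lg2 and Tfec had mixed signs.

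**Figure D4:**
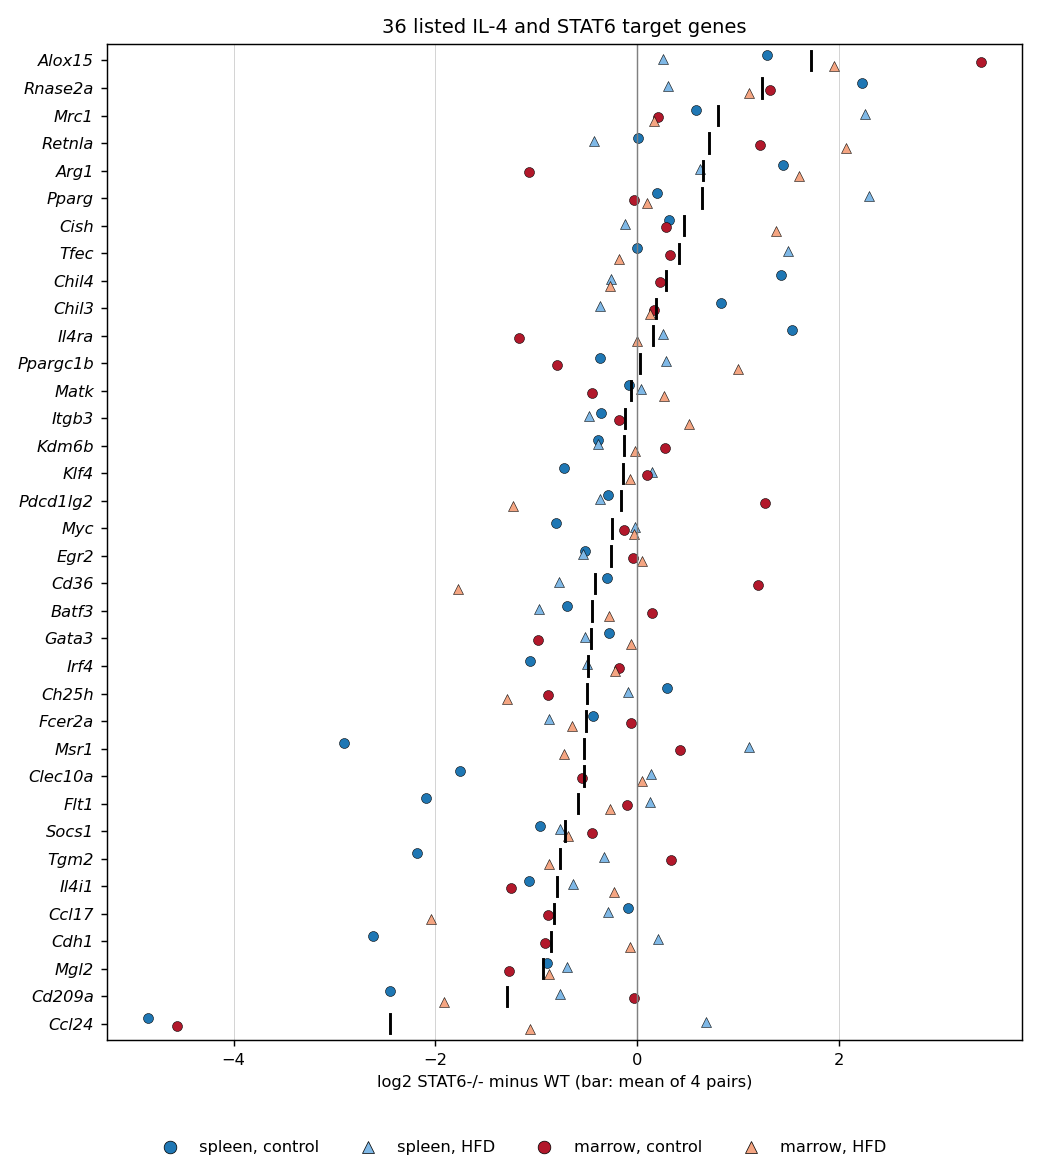
Log2 difference between STAT6-/- and WT in each pair (points) and the mean (bar) for the 36 tested IL-4 and STAT6 target genes, ordered by mean. Points of most genes fall on both sides of 0, Mgl2 and Socs1 lie below 0 in every pair, and Ccl24 has low points on the control diet.

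Eosinophil genes were higher in STAT6-/-. Of 12 genes 9 were higher in all 4 pairs (6.20% of all features were), none was lower in all 4, and the median was 1.62, with 2.27, 0.35, 2.09 and 1.94 in the pairs. Epx, eosinophil peroxidase, read -3.75, -3.14, -0.39 and -0.44 in WT and 0.71, -1.85, 2.29 and 1.69 in STAT6-/- (2.64, SE 0.54, limma adjusted p 0.626). Ccr3, the eotaxin receptor gene, read -0.09, -0.93, -2.52 and -2.02 against 0.35, 1.04, -0.03 and -0.88 (1.51, adjusted p 0.723). Both were higher in every pair but their groups overlapped across tissues, since Epx was brighter in marrow and Ccr3 in spleen.

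The granule ribonuclease genes Ear1 (1.38), Ear2 (1.25) and Ear6 (1.82) followed, as did the major basic protein gene Prg3 (2.03), while Prg2 (1.84) was higher in 3 pairs and -0.12 in HFD spleen. HFD spleen had the least difference for these granule genes. Of the identity markers, Siglecf (0.58) was higher in 3 pairs and Il5ra (1.04) in 2, both in marrow. The mean level of the list was -0.46, -0.42, 0.42 and 0.26 in WT and 1.69, 0.16, 2.38 and 1.92 in STAT6-/-. The STAT4-/- arrays read 1.73, -0.62, 3.13 and 0.84, above the matched WT array except in HFD spleen. The HDC-/- arrays read -1.13, 0.25, 0.69 and 0.0096, above the matched WT array in HFD spleen and control-diet marrow only. With each pair left out in turn, 9 to 11 of the 12 were higher in all pairs left, as were 8.07% to 17.2% of all features. This count could not fall below 9.

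Erythroid genes were higher as well. Of 14 tested genes 11 were higher in all 4 pairs (6.20% of all features were) and none lower in all 4. The median was 1.58, with pair medians of 2.66, 0.82, 1.05 and 1.45. Klf1, the erythroid master regulator, read -0.97, -0.0044, -1.85 and -2.83 in WT and 2.74, 2.21, -0.64 and -1.08 in STAT6-/- (2.22, SE 0.45, limma adjusted p 0.626). Its difference was larger in control-diet spleen than in any other pair.

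The globin genes, already bright in WT, differed by less: Hba-a1 by 0.78 and Hbb-bt by 0.68. Gata1, shared by the erythroid and eosinophil lists, read -0.20, 0.10, -0.57 and -1.53 in WT and 2.84, 2.30, 0.33 and 0.40 in STAT6-/- (2.02, limma adjusted p 0.618), with no overlap between the genotypes (0.556% of all features had all STAT6-/- above all WT values). The mean level of the erythroid list spanned -0.90 to 1.39 in WT, 0.37 to 3.01 in STAT6-/-, 0.54 to 2.04 in STAT4-/- and -0.60 to 1.74 in HDC-/-. Per array WT read 0.83, 1.39, -0.42 and -0.90, and STAT4-/- read 2.04, 1.51, 0.69 and 0.54, above WT at each matched position. HDC-/- read -0.60, 1.74, 1.44 and -0.26, below WT in control-diet spleen only. With each pair left out, 11 or 12 of the 14 were higher in all pairs left (8.07% to 17.2% of all features), a count that could not fall below 11.

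The 28 cell cycle genes had a median of 0.63, and control-diet marrow alone had a pair median under 0. The pair medians were 1.61, 0.72, -0.13 and 0.54, and 6 genes were higher in all 4 pairs (6.20% of all features), 22 without the marrow control pair (17.2%) and 10 without the marrow HFD pair (15.2%). The list median was 0.305 without the spleen control pair and 0.961 without the marrow control pair. The S-phase cyclin gene Ccne1 differed by 2.50, 1.58, 0.01 and 1.26, and the mitotic cyclin gene Ccnb1 by 2.02, 1.40, -0.10 and 1.08. Primary granule genes of neutrophil precursors had pair medians of 2.16, 0.60, -0.53 and 0.49. Elane read 3.27 in WT and 5.20 in STAT6-/- control-diet spleen, and 6.32 against 5.92 in control-diet marrow. In control-diet spleen the precursor, erythroid and cell cycle lists were thus all higher together, and the part of any of these cells in the other lists was not tested.

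**Figure D5:**
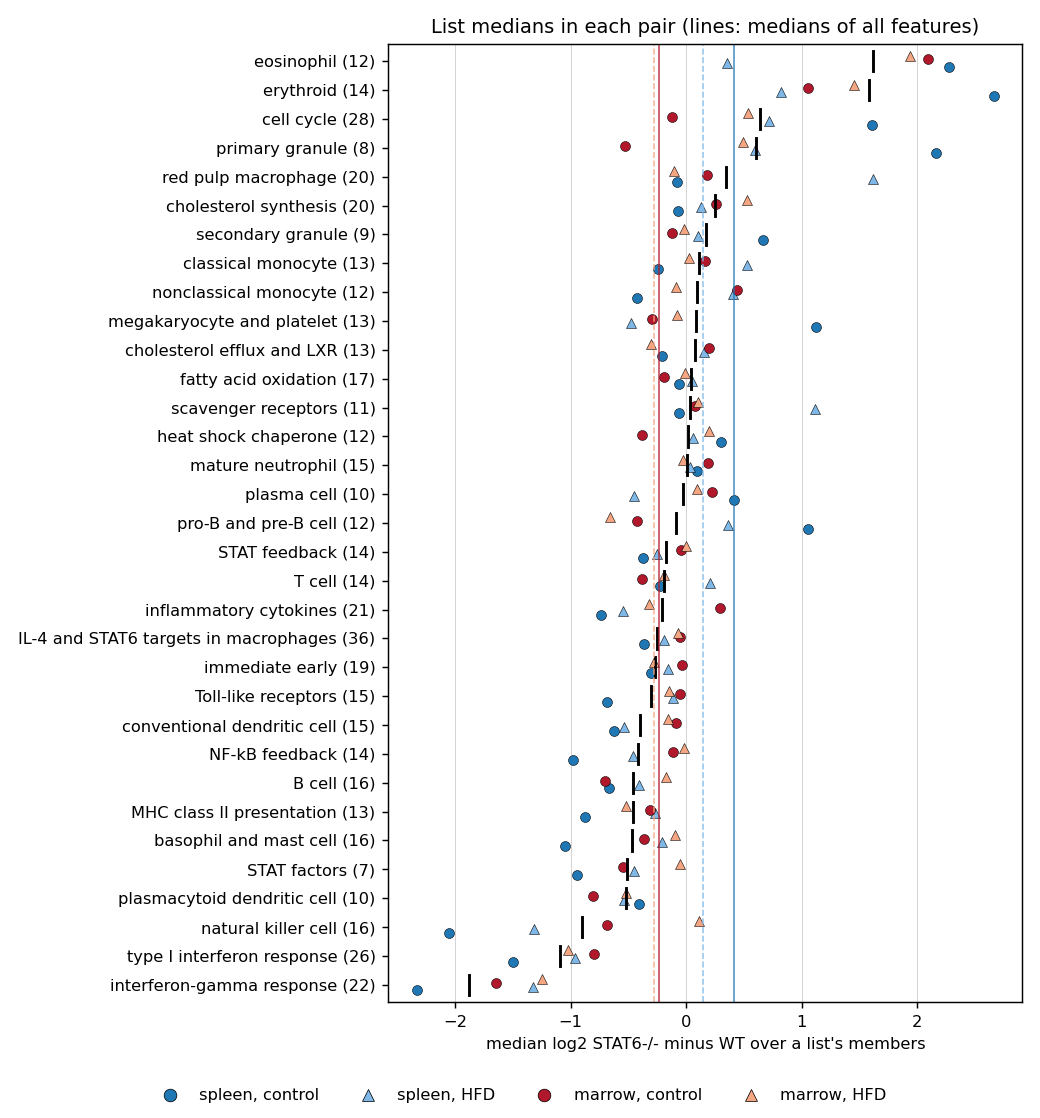
Median log2 difference between STAT6-/- and WT over the members of each gene list (number tested in brackets) in each pair (points) and for the mean of the 4 pairs (bar); vertical lines mark the medians of all features in the same pairs. The interferon lists lie to the left and the eosinophil and erythroid lists to the right in all 4 pairs.

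The B cell, antigen presentation and plasmacytoid lists were lower by less, and other lymphoid lists had no common direction. Of 16 B cell genes 9 were lower in all 4 pairs (6.99% of all features; median -0.46), among them Pax5 (-1.47) and Ebf1 (-0.91). Of 13 MHC class II genes 5 were lower in all 4 pairs (median -0.46), with the chaperone genes H2-Ob (-0.85) and H2-DMb1 (-0.56) among them, and of 10 plasmacytoid dendritic cell genes 5 were (median -0.52). Of 14 T cell genes 1 was lower in all 4 pairs (median -0.19), as was 1 of 12 pro-B and pre-B genes (median -0.09), and of 10 plasma cell genes 2 were higher and 1 lower (median -0.03). Mature neutrophil genes had a median of 0.01 and classical monocyte genes of 0.11, so the lists of the main CD11b+ cells differed little as lists. Of the basophil and mast cell genes 4 of 16 were lower in all 4 pairs, and the chymase gene Cma1 differed by -2.14.

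Did the genotype difference depend on tissue? In spleen, where limma called 1 feature (0.00359%; 17.9% had an unadjusted p under 0.05, and 20% in marrow), Oas1a rose, and in marrow it called 2 (0.00718%): Oas1a rose and Gm10421 fell. Gm10421, a predicted gene, read 0.84 and 0.36 in WT marrow and -8.55 and -7.81 in STAT6-/- marrow, under background there, so it was at least 93.1-fold lower (fitted -8.78, limma adjusted p 0.0105). Under normexp background correction its marrow difference was -4.285 and was not called. In spleen it read -0.66 and -1.68 in WT and -6.59 in both STAT6-/- arrays. As for Oas1a, the WT arrays stood apart from all knockouts, here from above, as in 24 features (0.0861%; 122 without the control-diet STAT4-/- and HDC-/- arrays): Gm10421 read -8.68 to -6.35 on the HDC-/- and -5.86 to -5.19 on the STAT4-/- arrays.

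The difference between the tissues was called for no feature by limma (0%), with 6925 features at an unadjusted p under 0.05 (24.9%), of which 6724 (24.1%) leaned toward a higher difference in spleen. This lean followed brightness. The 6967 dimmest features had medians of 1.44, 0.34, -1.10 and -1.46 in the 4 pairs, and the 6966 brightest 0.04, 0.02, -0.11 and 0.16. Of the 8 arrays the STAT6-/- marrow arrays had the smallest shares of probes above background, and the HDC-/- marrow arrays on their slide had 62.3% and 68.1%.

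Of the named interferon genes, Oasl2 differed by -3.29 in spleen and -3.20 in marrow, and Gbp2 by -2.73 and -2.82, with limma adjusted p of 0.967 and 0.973 for the difference between tissues. Slc44a5, a choline transporter-like gene, was among those with the smallest p for tissue: it differed by -2.85 and -1.33 in spleen, and in marrow, where it was under background on both WT arrays, it was at least 6.41-fold higher (fitted spleen minus marrow -6.68, no bound, limma adjusted p 0.0561), but its second probe did not share the marrow direction (-2.58 and -1.68). Gsta4, a glutathione transferase gene, read -8.27 and -8.18 in WT spleen, under background, and -4.69 on both STAT6-/- spleen arrays, at least 6.35-fold higher (limma adjusted p 0.202), and it was not above background in marrow. Wt1 was above background only on the STAT6-/- marrow arrays, at least 3.01-fold higher there.

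The difference between the diets was called for no feature either (0%), with 272 at an unadjusted p under 0.05 (0.976%). Ifnb1, which encodes interferon-beta, had among the smallest p, with differences of -2.57 and -2.03 on the control diet and 0.83 and 1.27 on HFD (HFD minus control 3.35, SE 0.51, limma adjusted p 1). Its level was -2.26, -3.75, -4.10 and -5.30 in WT and -4.83, -2.92, -6.14 and -4.03 in STAT6-/-. It was well above background on all 4 WT arrays and on 3 of 4 STAT6-/- arrays. WT was brighter on the control diet and STAT6-/- on HFD in both tissues.

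Genes around Stat6, which lie closest to the targeted allele, were looked at as a group. Of the 50 genes on each side in RefSeq gene order, 93 were tested and none was called (0.00359% of all features were), with 12 higher (6.20% of all features) and 6 lower (6.99%) in all 4 pairs and 12 at an unadjusted p under 0.05 by limma (5.57% of all features). Their median absolute difference was 0.254, against 0.241 over all features. Nab2, a repressor of EGR factors and the gene next to Stat6, was picked out after its values were seen: it read 0.74, 0.95, -2.18 and -3.02 in WT and 2.01, 2.06, 1.16 and 1.67 in STAT6-/- (2.60, SE 0.68, limma adjusted p 0.723). It was higher in every pair by this probe, but a second, dim probe gave -0.09.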

How the data were processed

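Total RNA of the pooled CD11b+ cells was extracted with TRIzol and labelled with Cy3 by the Quick Amp protocol, per the labels' protocols. The deposited files hold spot intensity that the authors read with Agilent Feature Extraction 11.0.1.1 (one-colour, background subtracted, not scaled between arrays), per the file headers. The probe design used mm9, per the file headers. No aligner or build beyond that applies to these values.

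From the processed intensity, 1377 control spots and 235 probes with outlier marks were left out, repeated spots were averaged, log2 was taken, and each array's 75th percentile was subtracted. Through their RefSeq accessions 27234 of 39429 probes (69.1%) matched a symbol in the RefSeq annotation (GRCm38.p6), used for names and gene order, not for probe positions. The brightest probe stood for a gene, which had to be well above background on 2 or more of the 8 arrays; this gave 27865 features, 18214 with a symbol. No spot was saturated, and the number of arrays limits the precision.

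limma 3.58.1 (R 4.3.3, statmod 1.5.0) fitted pair plus genotype (3 residual degrees of freedom), or a genotype term in each tissue or diet (2), with empirical Bayes, two-sided tests and Benjamini-Hochberg adjustment. The pairs are matched by tissue and diet from the labels, not by animal. A bound compares the bright group's mean with the higher of the dim probe and the lowest signal well above background on each array. Bounds were computed on the processed signal only. Stat6 probes were tested by exact permutation over arrays. The fits were tested on simulated data. Named genes are, on each side, called genes with 1 direction in all pairs and above background on all 4 arrays of the brighter genotype, up to 12, or the 10 with the smallest p where under 3 were called; fewer were taken for tissue and diet contrasts; some genes are not reported here. The members, gene lists and rules were chosen with earlier results of these data known. Promoter sequences came from RefSeq (GRCm38.p6). Figures were drawn with matplotlib 3.10.9. Alternatives covered background correction, scaling, filter, probe choice, prior, arrays in the fit, block and each pair left out.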

Additional observations from a re-analysis of the deposited data

Results flagged for a closer look

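Of 76 genes, lists and probes with 4 pair values each, 3 had a pair far from the other 3, where chance gives about 5% of such groups. The red pulp macrophage list had a median difference of 1.62 in HFD spleen and -0.108 to 0.182 in the other pairs, with the complement gene C1qa at 2.11 and the efferocytosis receptor gene Mertk at 2.58 in that pair. The scavenger receptor list had 1.11 in HFD spleen and -0.0601 to 0.103 elsewhere; Marco, on both lists, differed by 2.10 there. The Toll-like receptor list had -0.686 in control-diet spleen and -0.15 to -0.0513 elsewhere.

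In 6 genes and 1 list both spleen pairs moved one way and both marrow pairs the other. For the genes limma gave an adjusted p of 0.0561 for the difference between tissues, and for the list the difference was not tested. Apart from Fitm1, these genes were examined because of a small p for that difference, so opposite signs follow in part from the choice. The share of all features with such signs was not counted. The dimmest features as a whole had medians of 1.44, 0.34, -1.10 and -1.46 in the 4 pairs. Spleen minus marrow was -6.68 for Slc44a5, -3.89 for Cdhr3, 3.49 for Fitm1, 4.32 for Ppp1r2-ps9, 3.94 for the stem cell marker gene Zfp42 and 3.99 for Vmn1r20. Slc44a5 and Fitm1 were under background on some arrays of 1 genotype, and the other 4 genes on some arrays of both. The sizes above are fitted values, not bounds. In marrow Fitm1 was at least 2.18-fold and Ppp1r2-ps9 at least 1.04-fold lower, and for Vmn1r20 the bound did not keep the direction. The list of pro-B and pre-B cells differed by 1.25 between tissues, with medians of 1.05 and 0.359 in spleen and -0.43 and -0.662 in marrow; the surrogate light chain gene Vpreb1 differed by 1.84, 0.38, -0.39 and -0.70.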

How the results depend on the processing

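The 20 genes chosen across the 4 pairs were picked for 1 direction in all pairs, so leaving out a pair could not reverse them. The filter, prior, arrays in the fit and block left their differences unchanged. With normexp, median scaling, quantile normalization and the mean of a gene's probes, which could change the differences, all 20 kept their direction. Oas1a was called in 11 of the 14 alternative settings. With 1 feature called in the 4-pair fit, the count became 3 with median scaling, 5 with quantile normalization, 5 with the stricter filter, 229 with a trended robust prior, 9 with all 16 arrays, 4 with slide as a random block, 20 with no replicate block and 0 to 1 with a pair left out. Dropping the block ignores the pairing by tissue and diet. Of the 229 calls 108 were higher and 121 lower, and of the 20, 8 and 12.

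In spleen the count went from 1 to 0 with normexp, 3 with median scaling, 42 with the stricter filter, 593 with the trended prior, 4 with all 16 arrays and 27 with no replicate block. In marrow it went from 2 to 0 with normexp, 956 with median scaling (70 higher, 886 lower), 574, 665, 1155 and 1576 in that order of the later settings. Between tissues 0 became 895 with the trended prior and 2159 with all 16 arrays, and between diets 0 became 59 with the trended prior. Median scaling moved the median of all features from 0.276 to -0.0489 in spleen and from -0.187 to 0.0113 in marrow. A slide block could not be fitted within tissues, where it coincides with genotype.

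The mean difference of the brightest Stat6 probe from the 12 other arrays ranged from -0.791 to -0.627 with 1 STAT6-/- array left out. No value reversed. The cause of these shifts was not tested. The counts of list members with each pair left out, and the values without the control-diet STAT4-/- and HDC-/- arrays, were chosen after seeing the data. Such counts cannot fall below those over all pairs.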
